A study of Mus musculus with 12 samples.

Results

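Transcripts of 7 steroid hormone metabolising enzymes were followed in mouse liver: Hsd17b6, Hsd17b2, Hsd11b1, Hsd3b5, Srd5a1, Akr1c6 and Akr1c14. The set was chosen by the FPKM of Hsd17b6 in these same libraries, where its transcript was lower on Western diet than on chow, and the other 6 genes share its biochemical theme. All 7 were found by symbol among the 23284 genes listed, and all 7 passed the filter on low values that left 11548 genes for testing. The members' diet values therefore describe the set and are not evidence for it. The members are tested between genotypes, and genes outside the set also between diets. For Hsd17b6, the comparisons between genotypes share libraries with the contrast that chose it, so its values there are a description too.

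Liver RNA of 12 samples was sequenced in 4 groups after 22 weeks on diet. Every sample came from a mouse lacking both Apoa1 and Apoe (Apoa1-/- Apoe-/-, called DKO), so no group had either intact mouse gene. The DKO chow group had 4 libraries and the DKO Western diet group, on a high-fat diet, had 3. Mice that also carried human APOA1 (DKO/hA1) gave 2 libraries on chow and 3 on Western diet. The promoter driving the human gene, the cells expressing it, the diets' composition, and the age and sex of the mice are not given in the sources used here. Transcripts of Y-linked genes were present in every library. The labels number the samples within a group without stating that each is a separate animal, so p-values measure the spread between these samples.

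Steroid hormones reach the liver in the blood and are oxidised, reduced and conjugated there before excretion. Paired enzymes run many of these steps in opposite directions, so that one makes an active hormone and its partner an inactive form. In rodent liver several of these genes are expressed at different levels in males and females, under the control of growth hormone secretion.

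Values are FPKM, fragments scaled to transcript length and to the mapped fragments of the library, so that levels can be compared between genes. Totals per library ranged from 379689 to 578927 FPKM, and 10298 to 11005 genes reached 1 FPKM. Apoa1 was listed at 30.4 to 77.4 FPKM in the 7 libraries without the human gene and at 122 to 240 FPKM in the 5 with it, and Apoe at 12.9 to 89.8 FPKM over all 12. Which part of each gene was deleted is not given in the sources used here, so these levels do not check the knockouts. The sum of 9 hepatocyte markers lay between 12830 and 27680 FPKM. Albumin, the hepatocyte's main secreted protein, was listed at exactly 0 in 9 libraries and was left out. Of 8 adrenal cortex markers, 6 stayed below 1 FPKM everywhere and 3 of them were at 0 throughout. Replicate 2 of DKO Western diet and replicate 3 of DKO/hA1 Western diet stood apart by neutrophil transcripts. None of the 9 neutrophil markers was at 0 throughout, and their summed level was 926 FPKM and 855 FPKM in these libraries. It was 12.9 to 23.8 FPKM in DKO chow, 22.8 to 30.2 FPKM in DKO/hA1 chow, and from 94.8 and 18.1 FPKM upwards in DKO and DKO/hA1 on Western diet.

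The sequence upstream of the start is shown for Hsd17b6, Hsd11b1 and Srd5a1, the members whose DKO chow and DKO Western diet libraries did not overlap. Each window runs from 250 bases before to 50 bases after the start site in RefSeq on GRCm38.p6, printed 5′ to 3′ along the gene, and 6 of the 7 members have such an entry. Capitals mark matches on either strand to CCAAT, the CCAAT box, and to TTNCNNAA, a C/EBP-type motif; where matches overlap they run together.
Hsd17b6, chr10:128007562-128007861, minus strand: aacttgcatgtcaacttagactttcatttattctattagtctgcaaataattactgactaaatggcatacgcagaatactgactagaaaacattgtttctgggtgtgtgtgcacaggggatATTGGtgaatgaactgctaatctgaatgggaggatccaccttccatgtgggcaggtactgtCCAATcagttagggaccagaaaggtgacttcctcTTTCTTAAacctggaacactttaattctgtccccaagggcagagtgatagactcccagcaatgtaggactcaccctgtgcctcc
Hsd11b1, chr1:193242311-193242610, minus strand: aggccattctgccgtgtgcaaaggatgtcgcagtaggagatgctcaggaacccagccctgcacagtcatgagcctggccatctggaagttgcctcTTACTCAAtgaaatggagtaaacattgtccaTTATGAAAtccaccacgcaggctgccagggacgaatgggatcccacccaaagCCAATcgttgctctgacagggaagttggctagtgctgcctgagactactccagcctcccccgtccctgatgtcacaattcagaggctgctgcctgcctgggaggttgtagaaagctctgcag
Srd5a1, chr13:69611414-69611713, minus strand: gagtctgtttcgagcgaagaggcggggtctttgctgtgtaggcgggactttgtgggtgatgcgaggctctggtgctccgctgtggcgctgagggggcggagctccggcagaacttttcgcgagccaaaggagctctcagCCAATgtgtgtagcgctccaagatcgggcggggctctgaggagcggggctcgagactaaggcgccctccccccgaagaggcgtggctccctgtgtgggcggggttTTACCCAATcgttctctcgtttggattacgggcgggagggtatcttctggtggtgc
The 3 windows differed in base composition. Hsd17b6 had 43.7% G and C with 1 CG pair, Hsd11b1 had 54.7% with 6 CG pairs and Srd5a1 had 63.0% with 24 CG pairs. The median over all 32851 promoter windows was 52.7% G and C with 7 CG pairs. All 3 windows held CCAAT, as did 37.4% of all windows, and all 3 held TTNCNNAA, as did 40.7%. The windows of Akr1c6 and Akr1c14, members whose DKO diet groups overlapped, also held both motifs, and that of Hsd3b5 held TTNCNNAA. None of the 3 held TTCNNNGAA, a STAT5-type motif found in 8.3% of all windows, AGAACA, part of the glucocorticoid receptor site, in 18.97%, or AGGTCA, a nuclear receptor core, in 16.3%. Hsd17b6 and Hsd11b1 each have several annotated starts, and which of them these livers used was not measured. A second, overlapping Hsd17b6 window, whose start site is at 128007508, had 47.7% G and C with 0 CG pairs and held the same motifs, with 1 more CCAAT match.

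By their levels on chow the 7 transcripts fell into a few tiers. In DKO chow, Akr1c6 was the most abundant at 756 ± 88.7 FPKM (mean ± SD, n = 4), followed by Hsd11b1 at 336 ± 45.9 FPKM. These neighbours did not overlap. Hsd3b5 at 159 ± 40.2 FPKM, Akr1c14 at 138 ± 43.9 FPKM and Hsd17b2 at 116 ± 29.9 FPKM overlapped one another. Hsd17b6 at 45.1 ± 10.9 FPKM and Srd5a1 at 35.0 ± 2.88 FPKM were the lowest, and their ranges overlapped. The order of means was the same in DKO/hA1 chow, from Akr1c6 at 521 FPKM to Srd5a1 at 27.9 FPKM. On Western diet without human APOA1, Hsd17b6 moved to the last place at 11.05 ± 5.04 FPKM (n = 3), below Srd5a1 at 16.5 ± 5.45 FPKM, with overlapping ranges. Akr1c6 alone made up 42.6 to 59.4% of the summed FPKM of the 7 genes in a library.

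**Figure D1:**
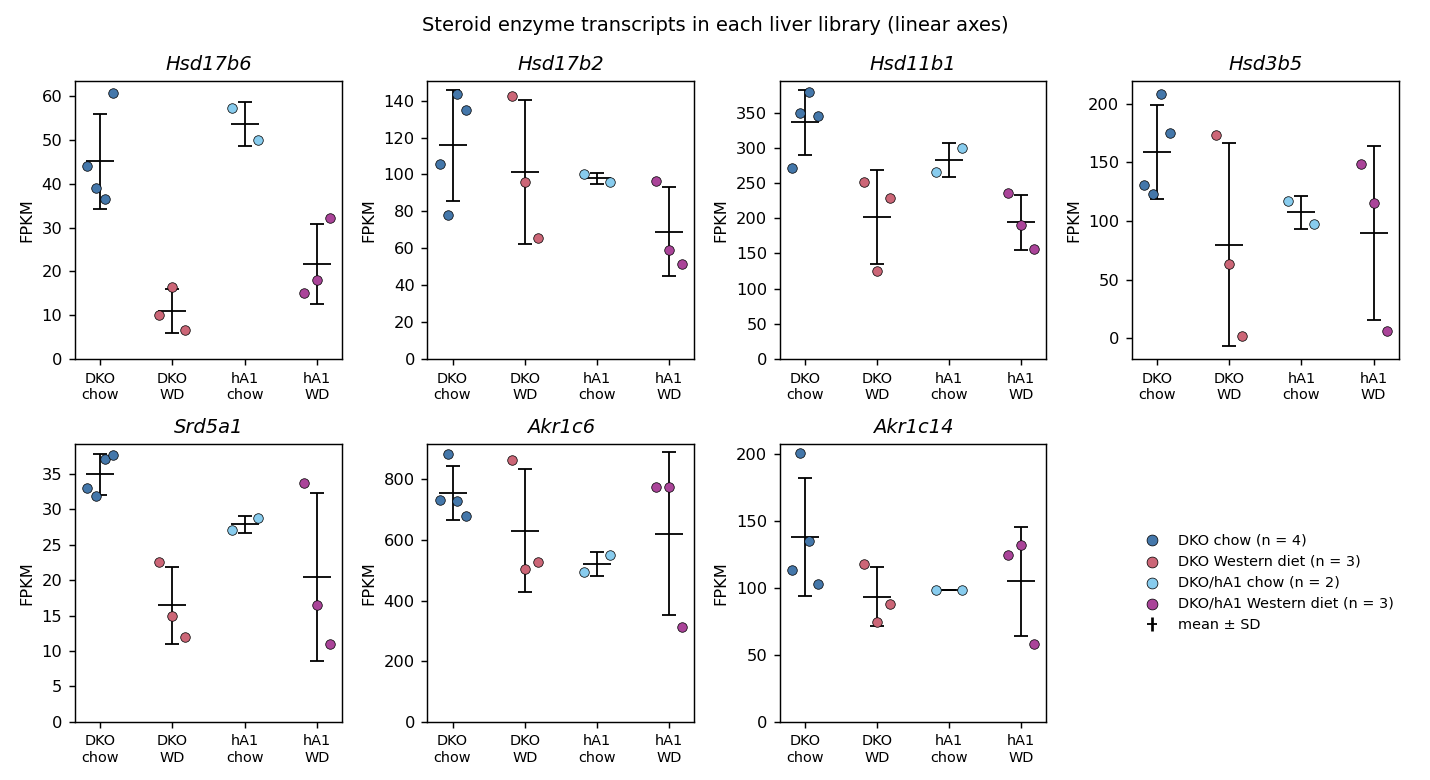
FPKM of each gene in each of the 12 libraries (points), by group, with the group mean and SD as black bars; the vertical axes are linear. Hsd17b6 lies between 36.6 and 60.7 FPKM on chow and between 6.62 and 32.2 FPKM on Western diet, and Hsd3b5 is close to 0 in 1 library of each Western diet group.

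Hsd17b6 encodes a dehydrogenase of the short-chain family that oxidises 3α-androstanediol back towards the potent androgen dihydrotestosterone, and it can also oxidise retinol. In DKO chow its transcript was at 44.1, 39.0, 36.6 and 60.7 FPKM in replicates 1 to 4. In DKO Western diet it was at 9.99, 16.5 and 6.62 FPKM. The DKO/hA1 libraries were at 57.3 and 50.02 FPKM on chow and at 15.1, 17.97 and 32.2 FPKM on Western diet. Every Western diet library was below every chow library in both genotypes. The fitted difference, Western diet minus chow, was -2.06 ± 0.31 (log2, SE) without human APOA1 and -1.35 ± 0.37 with it, differences that chose the set and carry no test here. The ratio of mean FPKM was 4.08-fold lower without human APOA1 and 2.47-fold lower with it.

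In the fit over all genes, Hsd17b6 was the 1 member under a limma adjusted p (Benjamini-Hochberg) of 0.05 without human APOA1, as were 0.113% of all genes. With human APOA1 the number was 0 of 7, beside 1.32% of all genes, 152 in all and 18 when the first number of the sample code, shared by some libraries of different groups, was a random block. These counts come from the contrast that chose the gene, so they are given as a description and nothing is read from them. The count of 1 was also unsteady: it became 0 in 13 of 25 other ways of running the fit, while the fold change stayed between -2.38 and -1.72. Leaving out DKO chow replicate 1, 2, 3 or 4, DKO Western diet replicate 1 or 3, either DKO/hA1 chow library or DKO/hA1 Western diet replicate 2 each gave 0.

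The libraries with the highest Hsd17b6 levels on Western diet were also those highest in neutrophil transcripts within their groups. Without these 2 libraries, the fitted differences were -2.38 ± 0.21 without human APOA1 and -1.66 ± 0.24 with it. Taking out the highest Western diet value of each genotype lowers the Western diet means by itself, so nothing is read from the change. Whether neutrophil RNA had a part in the Hsd17b6 level was not tested. In whole liver, fewer cells of a type and less RNA per cell cannot be told apart.

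Srd5a1 encodes steroid 5α-reductase, which makes dihydrotestosterone from testosterone and also reduces glucocorticoids. Its transcript was at 33.1, 31.9, 37.2 and 37.6 FPKM in DKO chow and at 22.5, 14.9 and 11.9 FPKM in DKO Western diet. In DKO/hA1 it was at 27.0 and 28.7 FPKM on chow and at 33.8, 16.5 and 11.03 FPKM on Western diet. The DKO groups did not overlap, whereas in DKO/hA1 the first Western diet library was above both chow libraries. The fitted diet difference was -1.15 ± 0.30 (log2, SE) without human APOA1 and -0.58 ± 0.36 with it.

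Akr1c6 encodes the liver's aldo-keto reductase with 17β-hydroxysteroid dehydrogenase activity, which reduces androstenedione to testosterone. It was at 733, 884, 727 and 680 FPKM in DKO chow and at 864, 503 and 526 FPKM in DKO Western diet. With human APOA1 it was at 493 and 549 FPKM on chow and at 776, 775 and 312 FPKM on Western diet. Both diet pairs overlapped, and the fitted differences were -0.37 ± 0.31 (log2, SE) without human APOA1 and 0.13 ± 0.37 with it.

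Hsd17b2 encodes the oxidative enzyme that turns estradiol into estrone and testosterone into androstenedione. It was at 106, 78.0, 144 and 135 FPKM in DKO chow and at 143, 96.0 and 65.5 FPKM in DKO Western diet. The DKO/hA1 values were 99.99 and 95.9 FPKM on chow and 96.5, 58.8 and 51.7 FPKM on Western diet. The DKO groups overlapped widely, and the DKO/hA1 groups overlapped in deposited FPKM but not after scaling. The fitted diet difference was -0.29 ± 0.28 (log2, SE) without human APOA1 and -0.56 ± 0.34 with it.

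Akr1c14 encodes 3α-hydroxysteroid dehydrogenase, which reduces dihydrotestosterone to the weak androgen 3α-androstanediol. It was at 114, 201, 135 and 103 FPKM in DKO chow and at 118, 74.6 and 87.99 FPKM in DKO Western diet. With human APOA1 it was at 98.4 and 98.8 FPKM on chow and at 125, 132 and 58.3 FPKM on Western diet. Both diet pairs overlapped, with fitted differences of -0.61 ± 0.31 (log2, SE) without human APOA1 and -0.01 ± 0.37 with it. Across the 12 libraries Akr1c14 and Akr1c6, which lie in one gene cluster, had a Pearson correlation of 0.90, the highest of the 21 pairs of members, given as a description over libraries that share groups.

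Hsd3b5 belongs to the 3β-hydroxysteroid dehydrogenase family and is a form found in adult male mouse liver that reduces 3-keto steroids such as dihydrotestosterone. It was at 131, 123, 209 and 175 FPKM in DKO chow and at 173, 63.6 and 2.35 FPKM in DKO Western diet. With human APOA1 it was at 117 and 97.6 FPKM on chow and at 148, 115 and 6.30 FPKM on Western diet. The 2 low values were those of the third Western diet library of each genotype, and each remaining Western diet library except DKO replicate 2 lay within or above the chow range of its genotype. The highest library was 88.8 times the lowest, against 2.78 to 9.17 times for the other 6 members.

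The fitted diet difference of Hsd3b5 was -2.29 ± 1.31 (log2, SE) without human APOA1 and -1.12 ± 1.56 with it. Without DKO Western diet replicate 3 the first became -0.63 ± 1.04. Without DKO/hA1 Western diet replicate 3 the second became 0.27 ± 1.44. With human APOA1 the difference therefore rested on 1 library. Without it, most of the difference did, and DKO Western diet replicate 2, at 63.6 FPKM, was also below every DKO chow library.

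Hsd11b1 encodes the reductase that regenerates active corticosterone from its inactive keto form inside the endoplasmic reticulum, with NADPH supplied by H6pd. It was at 271, 349, 380 and 345 FPKM in DKO chow and at 251, 125 and 229 FPKM in DKO Western diet. With human APOA1 it was at 266 and 300 FPKM on chow and at 235, 190 and 157 FPKM on Western diet. All 6 Western diet libraries were below all 6 chow libraries, and the fitted diet difference was -0.86 ± 0.23 (log2, SE) without human APOA1 and -0.57 ± 0.28 with it. H6pd itself was at 68.8 to 110 FPKM on chow and 72.6 to 120 FPKM on Western diet, with overlapping groups. Nr3c1, the glucocorticoid receptor, differed by -0.01 ± 0.11 and -0.05 ± 0.13 (log2, SE) between diets without and with human APOA1.

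Counted over the members, the diet differences were negative for 7 of 7 without human APOA1 and 6 of 7 with it. Their medians were -0.86 and -0.57 (log2), beside -0.005 and -0.011 over all genes tested. With human APOA1, Akr1c14 changed sign in 6 of 25 alternatives, FPKM as deposited among them. Without human APOA1 the groups did not overlap for 3 members, all lower on Western diet, as for 5.49% of all genes. With it they did not overlap for 3 members, Hsd17b6, Hsd17b2 and Hsd11b1, as for 15.7% of all genes. Markers of other liver cells also differed along the diet groups. The summed level of 11 macrophage and Kupffer cell markers, none of them at 0 throughout, was 286 to 710 FPKM in DKO chow and 209 to 564 FPKM in DKO/hA1 chow. On Western diet it was 955 to 1250 FPKM in DKO and 1426 to 2112 FPKM in DKO/hA1. The mean of 9 hepatocyte markers was 10.05 (log2) in DKO/hA1 Western diet replicate 3, where 4 members had their lowest level, and 10.47 to 11.01 in the other 11 libraries. The part of cell composition in the members' values was not tested. Hsd17b6 and Hsd11b1 were the members in which all Western diet libraries lay below all chow libraries, as for 0.97% of all genes. Scaling to equal totals put the median of all genes at -0.19 (log2) without human APOA1, and gave -2.26 ± 0.28 for Hsd17b6.

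**Figure D2:**
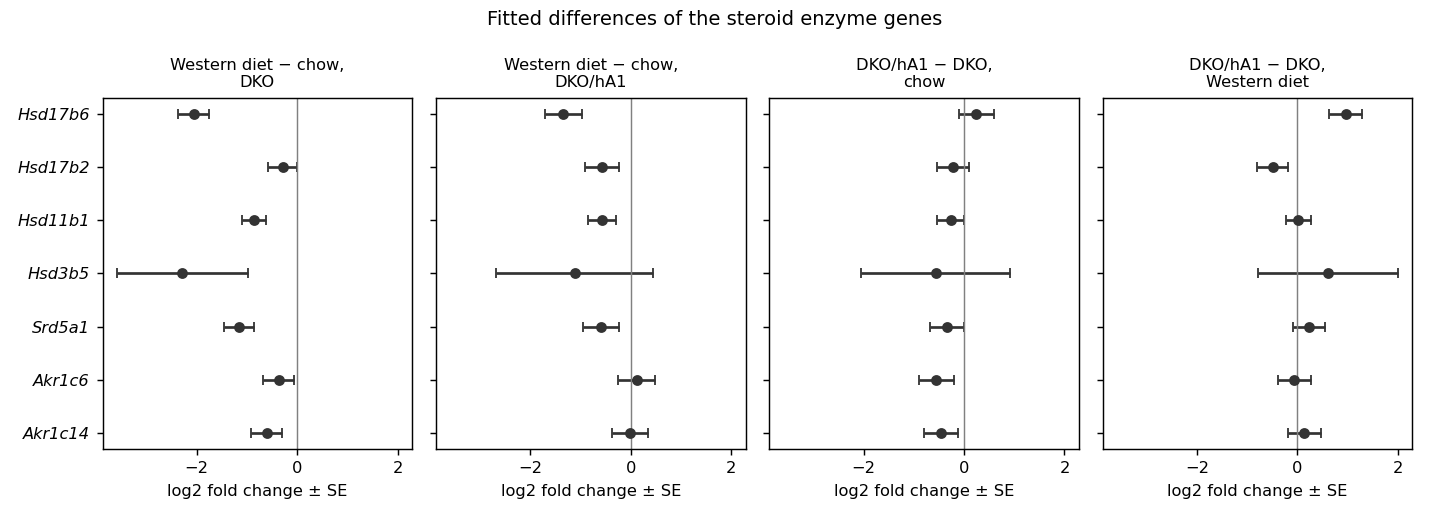
Fitted log2 differences with standard errors for the 7 genes in 4 comparisons: diet in each genotype, and DKO/hA1 minus DKO on each diet. Hsd17b6 sits at -2.06 and -1.35 in the diet panels, and at 0.24 on chow and 0.96 on Western diet in the genotype panels; the bars of Hsd3b5 are the widest in all 4.

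Whether human APOA1 altered these transcripts was tested within each diet, averaged over the diets, and as an interaction with diet. No member passed the threshold in these comparisons. On chow, 0 of 7 members were called by limma, where 0.0779% of all genes were. An unadjusted p under 0.05 was found for 0 members, beside 7.42% of all genes. Adjusted p ranged from 0.787 for Akr1c6 to 0.961 for Hsd3b5. The largest fitted differences, DKO/hA1 minus DKO, were -0.56 ± 1.48 (log2, SE) for Hsd3b5, -0.56 ± 0.35 for Akr1c6 and -0.46 ± 0.35 for Akr1c14. Both DKO/hA1 chow libraries were below all 4 DKO chow libraries for Hsd3b5, Srd5a1, Akr1c6 and Akr1c14, a pattern without overlap seen in 10.9% of all genes. With 2 libraries in 1 group, this comparison has little precision.

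On Western diet, 0 of 7 members were called by limma and 0.0% of all genes were. Hsd17b6 was the 1 member with an unadjusted p under 0.05, beside 5.85% of all genes. Its low DKO Western diet values chose the gene and also enter this comparison. The Hsd17b6 difference here is therefore a description, and nothing is read from its p. Hsd17b6 had 1.97 times the mean FPKM with human APOA1, at 21.7 ± 9.14 FPKM (SD, n = 3) against 11.05 ± 5.04 FPKM (SD, n = 3). The fitted difference was 0.96 ± 0.33 (log2, SE), with a limma adjusted p of 0.809. The lowest DKO/hA1 library, at 15.1 FPKM, was below the highest DKO library, at 16.5 FPKM, so the groups overlapped. Hsd17b2 had the opposite sign, at 69.0 ± 24.0 FPKM with human APOA1 and 101 ± 38.8 FPKM without it, a difference of -0.50 ± 0.30 and a limma adjusted p of 0.947. No member's groups were free of overlap in this comparison, as against 9.0% of all genes.

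Averaged over the diets, 0 of 7 members were called by limma, where 0.113% of all genes were. Hsd17b6 was the 1 member with an unadjusted p under 0.05, beside 8.02% of all genes. The averaged difference of Hsd17b6 was 0.60 ± 0.24 (log2, SE, limma adjusted p = 0.559). It too is a description, because the DKO Western diet values that chose the gene enter it. For the interaction of diet with human APOA1, 0 of the 6 members other than Hsd17b6 were called by limma, where 0.0173% of all genes were. Among these 6, 0 had an unadjusted p under 0.05, beside 4.87% of all genes. The diet difference of Hsd17b6 was 0.71 ± 0.48 less negative with human APOA1, a value given without a test because it contains the contrast that chose the gene. In those 6 members the interaction had limma adjusted p between 0.961 and 0.979. The largest was that of Hsd3b5 at 1.17 ± 2.04, which became -0.49 ± 1.51 without replicate 3 of DKO Western diet. Over all alternatives the Hsd3b5 interaction ran from -0.49 to 3.04.

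Other enzymes of the same chemistry came from a list of 35 reductases and dehydrogenases. Of the 26 that could be tested, 0 were called without human APOA1 by limma, with 7 at an unadjusted p under 0.05, and 1 was called with it, with 5. Over all genes, 11.8% and 13.5% had an unadjusted p under 0.05 in these comparisons. The gene called was Hsd17b7, which acts in cholesterol synthesis as well as on estrogens, with a difference of -1.19 ± 0.25 (log2, SE; limma adjusted p = 0.0451). Its call was kept in 9 of 25 alternatives, and leaving out any 1 library ended it, other than DKO chow replicate 2 and DKO Western diet replicates 1 and 2; the values then lay between -1.29 and -1.09. The medians over the 26 were -0.24 and -0.16 (log2) without and with human APOA1, beside -0.86 and -0.57 for the members. Among 18 tested genes of steroid conjugation and hydroxylation, 0 were called in either genotype by limma, with 7 and 5 at an unadjusted p under 0.05.

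Several genes acting on steroids had large diet differences that did not pass the test and were picked out after their values were seen. Cyp3a11, a steroid and drug hydroxylase, was at 921 to 1802 FPKM on chow and at 3.497 to 322 FPKM on Western diet. Its fitted difference was -5.25 ± 1.02 (log2, SE, limma adjusted p = 0.145) without human APOA1 and -2.89 ± 1.22 (limma adjusted p = 0.333) with it. Relative to its mean over the libraries, Cyp3a11 was at -6.06 (log2) in DKO Western diet replicate 2. It was at -1.43 and -1.74 in replicates 1 and 3 of that group, and at 1.93 to 2.62 in DKO chow. Cyp17a1, the enzyme that opens the way from progestogens to androgens, was at 0.333 to 6.30 FPKM on chow. On Western diet it was at 4.58, 44.8 and 30.6 FPKM without human APOA1 and at 7.03, 5.52 and 115 FPKM with it. Sult1e1, which sulfates and inactivates estrogens, was at 0 to 0.137 FPKM on chow and at 1.11 to 2.39 FPKM in DKO Western diet. In DKO/hA1 Western diet it was at 0.138, 2.61 and 13.2 FPKM, so the first of these libraries was close to chow. Their limma adjusted p ranged from 0.287 to 0.59.

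Some liver genes are more abundant in females and others in males. Cyp3a44 and Cyp3a16 fell without human APOA1 by 2.15 ± 0.22 and 1.99 ± 0.22 on the log2 scale (limma adjusted p = 0.00219 and 0.00294), the 2 genes called of 10 tested in a female-biased list. The 10 had medians of -0.58 without and 0.55 with human APOA1, where 6 of 10 were positive and 0 were called by limma, with 3 at an unadjusted p under 0.05. Cyp3a44 and Cyp3a16 were low, at most 6.18 FPKM. Of 16 male-biased genes, Hsd3b5 among them, 0 were called in either genotype by limma, with 4 and 3 at an unadjusted p under 0.05. Their medians were -0.83 and -0.63 (log2). Of the 13 genes responsive to glucocorticoid, 0 were called in either genotype by limma, with 3 and 2 at an unadjusted p under 0.05. These shares are to be read against the 11.8% and 13.5% of all genes. The 3 were Lcn2, Mt1 and Mt2 and the 2 were Lcn2 and Tsc22d3, all higher on Western diet. Differences were negative for 5 of the 13 without human APOA1, among them Tsc22d3 at -0.16 ± 0.31 (log2, SE), and for 3 with it. The medians over the 13 were 0.15 and 0.60.

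The libraries in which the members were lowest also carried the most acute phase transcripts, made by hepatocytes in inflammation. The third DKO/hA1 Western diet library held the lowest value of the 12 libraries for Hsd17b2, Srd5a1, Akr1c6 and Akr1c14, and DKO Western diet replicate 3 held it for Hsd17b6 and Hsd3b5. Hsd11b1 was lowest in DKO Western diet replicate 2. The mean level of 18 acute phase genes was 10.45 to 11.23 (log2) in these 3 libraries, and 7.29 to 9.31 in the other 9. In DKO, all 18 had higher values on Western diet with no overlap, as for 7.22% of all genes. Of the 18, 0 were called by limma although 18 had an unadjusted p under 0.05, beside 11.8% of all genes. With human APOA1 1 was called, Saa3, at 2.03 ± 0.37 (log2, SE; limma adjusted p = 0.0289), a call that ended in 9 of 25 alternatives, among them without DKO chow replicate 1, either DKO/hA1 chow library, or DKO/hA1 Western diet replicate 2 or 3.

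Hsd17b6 did not follow that order. In DKO/hA1 Western diet replicate 3, where the other 6 members were each lowest in their group, Hsd17b6 was at 32.2 FPKM, the highest of the 6 Western diet libraries. Without the 3 libraries highest in acute phase transcripts, which leaves 1 DKO and 2 DKO/hA1 libraries on Western diet, Hsd17b6 differed by -2.11 ± 0.25 (log2, SE) and -1.66 ± 0.22 between diets. Hsd3b5 then differed by 0.08 ± 0.27 and 0.27 ± 0.25. The 3 libraries left out held the lowest Hsd3b5 values, so leaving them out raises its Western diet means by itself. They also held the highest Hsd17b6 value on Western diet in each genotype. Nothing is read from the contrast between these 2 genes. The lone library was assumed to vary like those of the other groups. The part of inflammation in the Hsd3b5 levels was not tested.

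**Figure D3:**
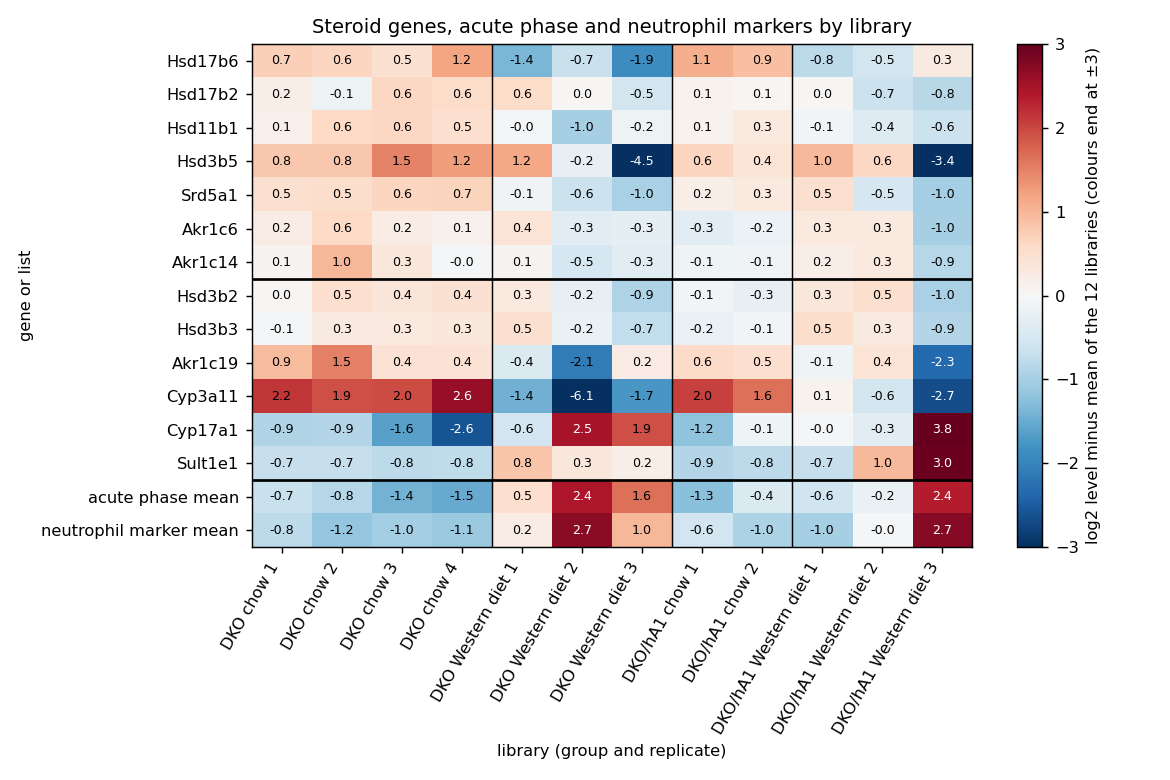
Level (log2) of each gene or list in each library minus its mean over the 12 libraries; colours end at 3 on either side, and the numbers give the values. Hsd3b5 reaches -4.5 and -3.4 in the third Western diet library of each genotype, where Hsd17b6 is at -1.9 and 0.3, and the acute phase and neutrophil rows are highest in DKO Western diet 2 and DKO/hA1 Western diet 3.

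Chromosomal neighbours of the members did not share their diet differences evenly. Hsd17b6 lies on chromosome 10 from 127990931 to 128007648 (GRCm38.p6, minus strand), in a cluster of retinol dehydrogenase genes. Of its measured neighbours, Sdr9c7, a related dehydrogenase, differed by -1.11 ± 0.36 (log2, SE; limma adjusted p = 0.295) between diets without human APOA1. With it, the ratio of mean FPKM was 0.533 (limma adjusted p = 0.342). Rdh16, Rdh7, Rdh19, Prim1, Naca, Ptges3, Atp5b and Baz2a stayed between -0.40 and 0.18, none of them called. Rdh16f2, in the same cluster, was not matched to a listed symbol and is left out.

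Hsd3b5, on chromosome 3 from 98618636 to 98645534 (minus strand), has several close copies beside it. Hsd3b3, at 68.2 to 185 FPKM, and Hsd3b2, at 11.3 to 32.6 FPKM, were both lowest in replicate 3 of DKO/hA1 Western diet and next lowest in replicate 3 of DKO Western diet. Relative to its mean over the libraries, Hsd3b2 was at -0.97 and -0.92 (log2) in these 2 libraries, where Hsd3b5 was at -3.36 and -4.52. Of the 50-base stretches of Hsd3b5 transcripts, 21.2% also occur in other genes, and 12.1% of those of Hsd17b6, so reads could be divided between copies. Hsd3b4 stayed at 0.574 to 3.24% of the Hsd3b5 level.

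In the Akr1c cluster on chromosome 13, where Akr1c14 spans 4048991 to 4090560 and Akr1c6 spans 4434311 to 4457530 (both plus strand), Akr1c19 had the most negative diet values. It was at 33.3 to 68.0 FPKM on chow, at 18.8, 5.07 and 30.4 FPKM in DKO Western diet and at 22.8, 33.3 and 4.12 FPKM in DKO/hA1 Western diet. The low values were those of 2 libraries, and the other 4 lay between 18.8 and 33.3 FPKM. Its fitted differences were -1.60 ± 0.68 and -1.23 ± 0.81 (log2, SE; limma adjusted p = 0.4 and 0.577). Akr1c12, Akr1c13 and Akr1c20, between or beside the members, lay between -0.61 and -0.08. Akr1c12 and Akr1c13 share 28.6% of their 50-base stretches, so their levels are uncertain.

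**Figure D4:**
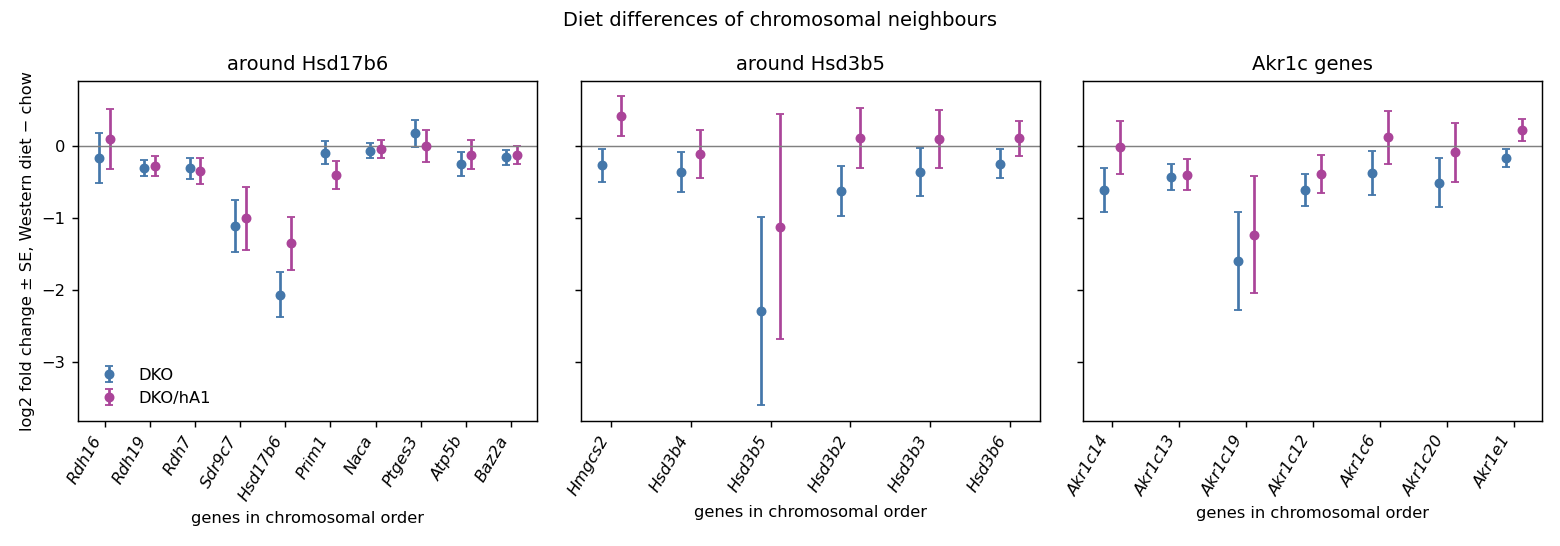
Fitted diet differences (log2, Western diet minus chow, with standard errors) of genes in chromosomal order around Hsd17b6, around Hsd3b5 and in the Akr1c cluster, for DKO and DKO/hA1. Hsd17b6, Hsd3b5 and Akr1c19 have the lowest values of their panels.

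The remaining members lie apart from these clusters: Hsd17b2 on chromosome 8 from 117700982 to 117759030 (plus strand), Hsd11b1 on chromosome 1 from 193221640 to 193264045 and Srd5a1 on chromosome 13 from 69573449 to 69611485 (both minus strand). No 50-base stretch of Hsd17b2 or Hsd11b1 occurred in another gene, while 16.5% of those of Srd5a1 also occurred in the predicted gene Gm17108.

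The genes most like Hsd17b6 across the 12 libraries, among 6562 genes with a mean of at least 5 FPKM, were Mospd2, Ugt1a9, Kin, Sap30bp, Raet1e and Slco2a1, with Pearson correlations from 0.89 to 0.85. These 12 libraries include the diet groups, so genes that differ between diets rank high. Ugt1a9, a glucuronosyltransferase, had diet differences of -2.41 ± 0.22 and -2.21 ± 0.26 (log2, SE) without and with human APOA1. Hsd3b5 was most like Calcoco1, Gtl3, Tom1l2, Hdac11, Hsd3b2 and Cyp4v3, at 0.94 to 0.90, and none of these 6 was called in either diet comparison.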

How the data were processed

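Liver RNA was measured by sequencing in 12 samples, grouped by genotype and diet from the labels. The authors deposited 1 table of FPKM. Its name says counts, but its values have decimals in every column. Per the submitters' processing notes the tools were TopHat 1.3.2, Bowtie 0.12.8, SAMtools 0.1.19 and Cuffdiff, with genome build mm10; the Cuffdiff version and annotation are not given in the sources used here. No read numbers are used here. Steps in low values put relative depth at 0.521 to 1.30 of DKO chow replicate 1, less surely outside DKO chow, so no counting intervals are given.

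Of 23284 genes, 5179 were 0 throughout. Left out were 779 small RNA genes, and 22 genes at 0 throughout 1 group but at 1 FPKM or more in every library of another. Tested were 11548 genes with at least 1 FPKM in at least 2 libraries. The shares over all genes therefore do not cover those 22. A trimmed mean of log ratios, without weights, set the scale of each library (trim 0.3 on ratios, 0.05 on levels), and 1 FPKM was added before the log2, which understates the change of low genes. limma 3.58.1 in R 4.3.3 fitted the 4 groups over 12 libraries with a trended, robust variance, tested on simulated data. Calls used a two-sided Benjamini-Hochberg adjusted p under 0.05 over all genes. Overlap between groups was read on scaled values. Figures used Python 3.11.15.

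The members, lists and tests were chosen with earlier results of these data known. Named genes were the members, list genes called in any comparison, and the 6 genes most correlated with Hsd17b6 and with Hsd3b5; H6pd, Nr3c1, chromosomal neighbours and close copies, and the steroid genes said to be picked so, fall outside that rule and were named after their values were seen. Copies were judged from shared 50-base stretches of GENCODE M21 transcripts. Positions and promoters are from RefSeq GRCm38.p6, the same assembly as mm10. Alternatives changed the value added, filter, scaling, variance model, block, libraries and groups fitted; those without the neutrophil-high or acute-phase-high libraries were chosen after seeing the data.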

Additional observations from a re-analysis of the deposited data

Results flagged for a closer look

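Saa3, an acute phase gene, was at 30.4 FPKM in DKO chow replicate 2, far from the other 3 DKO chow libraries at 16.2 to 18.4 FPKM. The gap to the nearest was 0.842 of the group's whole range, above the limit of Dixon's test. It was the 1 gene singled out of 23 checked, where chance singles out about 1 group in 20. The members themselves were not singled out.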

How the results depend on the processing

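Fold changes of the 7 members changed sign in 48 combinations of member, comparison and alternative, over 6 comparisons with 24 or 25 alternatives each. None of those 48 was called with either sign. Members called without human APOA1 numbered 1 as reported. The number was 0 with no level filter, with at least 5 FPKM in at least 2 libraries and with only the groups of the comparison fitted, and 0 to 1 when single libraries were left out. With a replicate block it was also 0. Whether replicate numbers pair the libraries is not stated. Of 15 same-numbered pairs, 4 had correlated deviations above 0.1, and they ranged from -0.28 to 0.44. Deviations sum to 0 within a group, so these correlations are tied together and cannot decide it. The highest was that of the first Western diet libraries of both genotypes, which also share the first number of the sample code. With human APOA1 the members called numbered 0 as reported, and 1, Hsd17b6, without both neutrophil-high libraries and without the 3 acute-phase-high libraries; this count too uses the contrast that chose the gene. Members called stayed at 0 in the genotype comparisons and the interaction under every alternative run. All genes called numbered 7 to 66 without human APOA1 (reported 13) and 6 to 189 with it (reported 152), 2 to 47 for human APOA1 on chow (reported 9), 0 to 2 on Western diet (reported 0), 2 to 21 averaged (reported 13) and 1 to 8 for the interaction (reported 2). The sample codes in the labels have a first number, whose meaning is not given. It is shared between the first Western diet libraries of both genotypes, and among DKO chow replicate 3 and both DKO/hA1 chow libraries. No first number occurs on both diets, and all those on Western diet are lower than all those on chow. What the number stands for therefore cannot be told apart from diet, and the random block does not separate them. With that number as a random block, all genes called numbered 18 with human APOA1, 14 without it, 28 for human APOA1 on chow and 19 averaged. Cyp3a44 and Cyp3a16 kept their calls in 24 of 24 alternatives, and Saa3 in 16 of 25. The cause of the lost calls was not tested. Depth is not known, so differences in transcripts near 1 FPKM, such as Sult1e1 and Hsd3b4 on chow, are the least certain.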
